A study of Mus musculus with 4 samples.

Results

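The 8 genes described here handle iron and heme: Ftl1 and Fth1, which encode the light and heavy chains of ferritin, Slc40a1, Slc11a1 and Tfrc, which encode transporters or receptors for iron, and Hmox1, Blvrb and Hp, whose products break down heme or bind hemoglobin. They were taken by symbol from the 31053 genes of the count tables, where each of the 8 symbols had 1 row. The cells were live CD45+ cells sorted from skin wounds, and 1 droplet library was made for each combination of genotype and day, 4 in all. The sample labels gave the strain as C57BL6/J for both genotypes, wild-type (Angptl4+/+) and Angptl4-/-. Angptl4-/- mice lacked the gene for angiopoietin-like 4, a secreted matrix-bound protein, in all cells. Both genotypes were male, carried 3 mm punch wounds and were sampled 1 or 5 days post wounding (dpw). The number of mice behind a library was not given in the sources used here. With 1 library for each condition there was no replicate and no test of a difference between conditions, and each interval below covers counting error only.

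Iron that a cell takes up on transferrin enters through the transferrin receptor encoded by Tfrc, is stored inside ferritin shells, and leaves through ferroportin, encoded by Slc40a1. Phagocytes also receive iron as heme from engulfed red cells. Heme oxygenase 1, encoded by Hmox1, opens the heme ring and frees the iron, and a biliverdin reductase then reduces the pigment that remains. Haptoglobin, encoded by Hp, binds hemoglobin that has leaked from red cells and is packed into granules while neutrophils mature. NRAMP1, encoded by Slc11a1, moves metal ions across the phagosome membrane of myeloid cells.

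On GRCm38, Ftl1 (ENSMUSG00000050708) lay at chr7:45457944-45459884, Fth1 (ENSMUSG00000024661) at chr19:9980598-9985098 and Slc40a1 (ENSMUSG00000025993) at chr1:45908068-45926523. Slc11a1 (ENSMUSG00000026177) lay at chr1:74375195-74386062 and Tfrc (ENSMUSG00000022797) at chr16:32608920-32632794. Hmox1 (ENSMUSG00000005413) lay at chr8:75093621-75100589, Blvrb (ENSMUSG00000040466) at chr7:27447978-27466144 and Hp (ENSMUSG00000031722) at chr8:109575128-109579172.

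Messages of several of these genes carry the iron-responsive element, a hairpin that iron regulatory proteins grip when iron is scarce. In a 5′ UTR the grip is known to block translation, and in the 3′ UTR of Tfrc it protects the message, so the level of ferritin RNA is not the level of ferritin. The hairpin was searched in the sense strand of annotated UTRs as a C, any 5 bases, the loop CAGTGN and 5 bases that pair with the first 5, with G-T pairs allowed. The hairpins are shown because they divide the 8 genes into those with and without this control. Each run reads 5′ to 3′ as DNA on the strand of its gene, with the loop in capitals.
Fth1, 5′ UTR, chr19:9982733-9982760, plus strand: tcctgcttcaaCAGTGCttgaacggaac
Ftl1, 5′ UTR, chr7:45459779-45459806, minus strand: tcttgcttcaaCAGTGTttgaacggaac
Slc40a1, 5′ UTR, chr1:45925465-45925492, minus strand: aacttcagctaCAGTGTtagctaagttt
Tfrc, 3′ UTR, chr16:32631220-32631247, plus strand: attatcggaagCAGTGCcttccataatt
Tfrc, 3′ UTR, chr16:32631599-32631626, plus strand: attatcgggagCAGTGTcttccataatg
Tfrc, 3′ UTR, chr16:32631664-32631691, plus strand: tatatcggagaCAGTGAtctccatatgt
Tfrc, 3′ UTR, chr16:32631711-32631738, plus strand: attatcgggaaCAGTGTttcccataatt
Fth1, Ftl1 and Slc40a1 each held 1 match in a 5′ UTR, which 31 of the 20899 genes with an annotated 5′ UTR had (0.148%). Tfrc held 4 matches in its 3′ UTR, where 129 of 21022 genes had at least 1 (0.614%). These letters were not found in the UTRs of Slc11a1, Hmox1, Blvrb or Hp.

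The 4 libraries held 20069 barcodes, of which 19827 passed the filter (at least 200 detected genes and at most 10% mitochondrial UMIs), with 26981596 to 32962595 UMIs (counted molecules) in a library. Angptl4 itself had 47 UMIs at 1 dpw and 78 at 5 dpw in Angptl4+/+ cells and 0 in both Angptl4-/- libraries. Any pair of libraries shared 4 to 15 cell barcodes. Clustering, made without the 8 genes, gave cells that were neutrophil-like (2697 to 3886 in a library), macrophage-like (643 to 1551), monocyte-like (124 to 153), dendritic cell-like (89 to 303) and NK cell/T cell-like (36 to 227). B cell-like cells numbered 2 to 27, and 33 cells led by Siglech stayed unnamed. All 14 neutrophil markers were seen in the neutrophil-like cells of every library, and also in its macrophage-like cells. Of the 20 macrophage markers, 20 were seen in macrophage-like cells and 19 or 20 in neutrophil-like cells. The classes were named from these lists, so the markers do not test the names.

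The 8 genes took 4.03% to 4.90% of all UMIs in neutrophil-like cells and 2.59% to 4.03% in macrophage-like cells, almost all of it from the ferritin genes. Both ferritin genes were counted in nearly every myeloid cell. Among the 5 larger named classes, Hmox1 and Blvrb peaked in macrophage-like cells, Hp in monocyte-like and neutrophil-like cells, and Slc40a1 in neutrophil-like cells. Levels are given as a gene's UMIs per 1000000 UMIs of the same class and library (CPM).

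**Figure D1:**
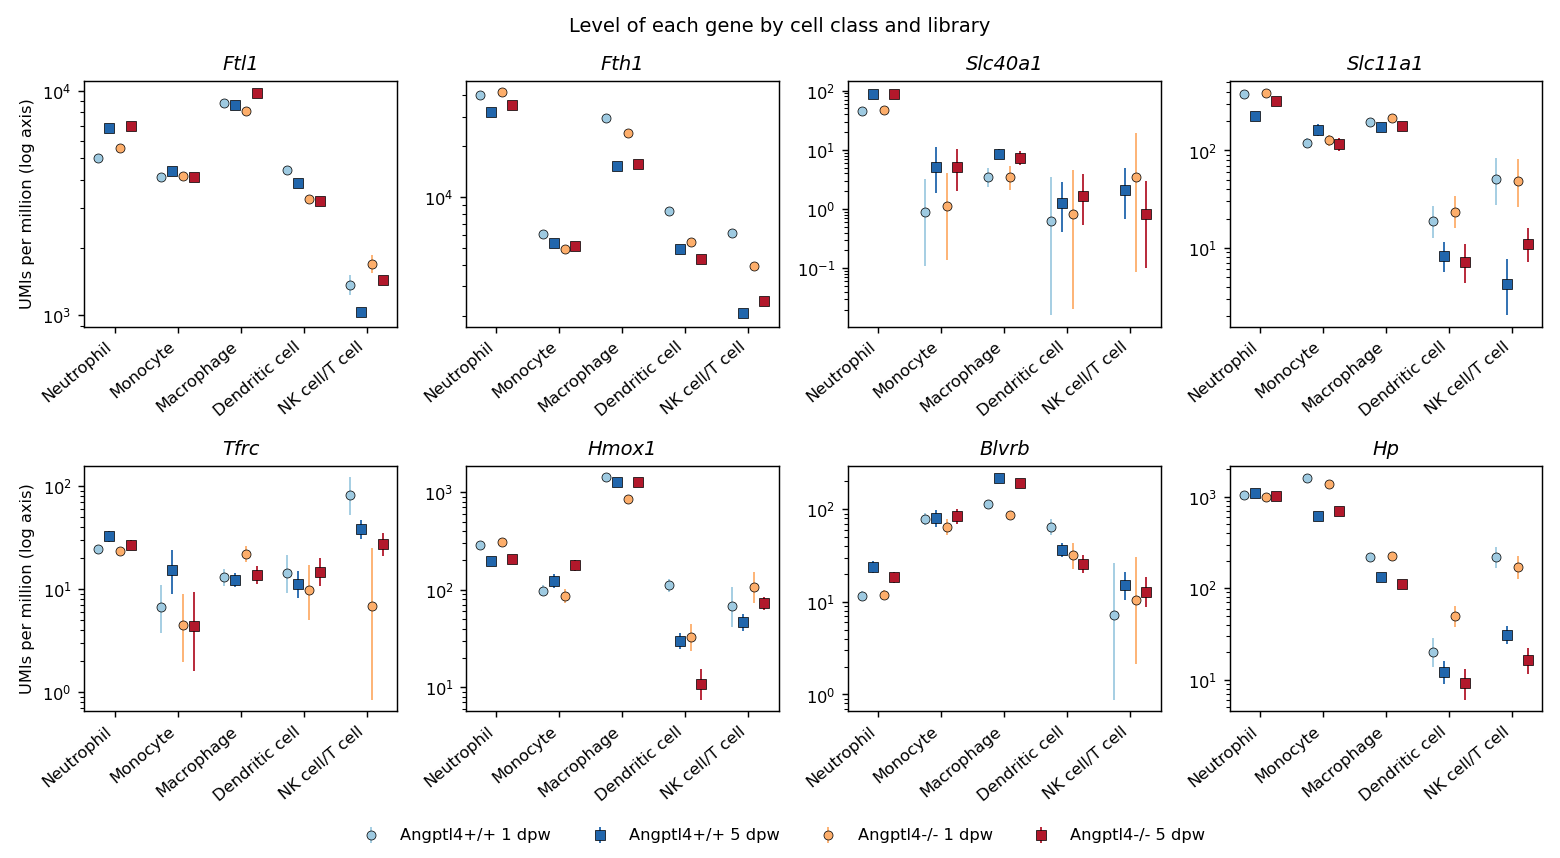
CPM on a log axis for each gene (panels) in 5 cell classes, with 1 point for each library and bars for exact Poisson 95% intervals. A class in which a library had 0 UMIs has no point (Slc40a1, NK cell/T cell-like, Angptl4+/+ at 1 dpw). Hmox1 stood between 846 and 1417 in macrophage-like cells of the 4 libraries and at 308 or below elsewhere, while Slc40a1 stood at 46.1 to 88.8 in neutrophil-like cells and at 8.56 or below elsewhere.

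Fth1, whose heavy chain oxidises iron as it enters the ferritin shell, had its highest levels in neutrophil-like cells. There it stood at 40242 and 41721 CPM at 1 dpw (Angptl4+/+ and Angptl4-/-), and at 31823 and 35024 at 5 dpw. In macrophage-like cells the levels were 29475 and 24049 CPM at 1 dpw and 15365 and 15833 at 5 dpw. All 4 libraries were thus lower in macrophage-like than in neutrophil-like cells. The 1 dpw libraries were higher than the 5 dpw libraries in both classes. In macrophage-like cells the summed neutrophil markers stood at 23954 and 20940 CPM at 1 dpw and at 4450 and 5822 at 5 dpw. Their part in the Fth1 values was not tested. Monocyte-like cells held 4956 to 6041 CPM, dendritic cell-like cells 4303 to 8261 and NK cell/T cell-like cells 2060 to 6135. The order of the last 3 classes was not the same in every library.

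Ftl1, which encodes the light chain that helps the iron core form, followed another order. Macrophage-like cells held the most in every library, with 8829 and 8119 CPM at 1 dpw and 8682 and 9781 at 5 dpw in Angptl4+/+ and Angptl4-/- wounds. Neutrophil-like cells held 5038 and 5558 CPM at 1 dpw and 6803 and 6974 at 5 dpw. Monocyte-like cells varied little, from 4114 to 4393, and dendritic cell-like cells held 3221 to 4453. Of the 1389 stretches of 31 bases in Ftl1 transcripts, 54.4% also occur in the pseudogene Ftl1-ps1 and 18.3% in Ftl1-ps2, so reads from these copies cannot be assigned with certainty. Ftl1-ps1 was counted apart at 2.08 to 39.0 CPM in these 5 classes.

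The balance of the light and heavy chain messages moved with class and day. The log2 ratio of Ftl1 to Fth1 UMIs was −3.00 and −2.91 at 1 dpw and −2.23 and −2.33 at 5 dpw in neutrophil-like cells (Angptl4+/+ and Angptl4-/-). In macrophage-like cells it was −1.74 and −1.57 at 1 dpw and −0.82 and −0.69 at 5 dpw. The ratio was therefore higher at 5 dpw than at 1 dpw in both classes and both genotypes. The part of the neutrophil markers in the macrophage-like ratios was not tested. Only differences of this ratio between samples are read here. Monocyte-like cells stood between −0.55 and −0.25.

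Slc40a1, the only iron exporter known in mammals, was counted mainly in neutrophil-like cells. Their levels were 46.1 and 46.7 CPM at 1 dpw (906 and 855 UMIs) and 86.4 and 88.8 at 5 dpw (746 and 1089 UMIs) in Angptl4+/+ and Angptl4-/- wounds. Macrophage-like cells held 3.45 and 3.44 CPM at 1 dpw (31 and 20 UMIs) and 8.56 and 7.32 at 5 dpw (112 and 56 UMIs). No library of one class overlapped a library of the other. Of the neutrophil-like cells, 16.3% to 19.8% had at least 1 Slc40a1 UMI at median depths of 3218 to 4684 UMIs, and 4.10% to 7.85% after each cell was thinned to 1000 UMIs. In NK cell/T cell-like cells, at median depths of 6274 to 7147 UMIs, the share was 0% to 2.78% and 0% after thinning. Monocyte-like and dendritic cell-like cells held 1 to 7 UMIs in a library, too few to rank. The 112 macrophage-like UMIs of the Angptl4+/+ library at 5 dpw sat in 28 of 1551 cells.

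Slc11a1 was highest in neutrophil-like cells, at 377 and 388 CPM at 1 dpw and 227 and 320 at 5 dpw. Macrophage-like cells followed with 176 to 216 CPM and monocyte-like cells with 116 to 163. Macrophage-like and monocyte-like libraries did not overlap, although the highest monocyte-like and the lowest macrophage-like values, both from Angptl4+/+ wounds at 5 dpw, had overlapping intervals. Dendritic cell-like cells held 7.09 to 23.6 CPM.

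Tfrc was counted in all 5 classes. Neutrophil-like cells held 24.4 and 23.5 CPM at 1 dpw and 32.7 and 27.2 at 5 dpw, and macrophage-like cells 13.1 and 22.2 at 1 dpw and 12.2 and 13.9 at 5 dpw. The widest range was that of NK cell/T cell-like cells, whose 1 dpw libraries stood at 82.7 (Angptl4+/+) and 6.92 CPM (Angptl4-/-). Those values rest on 23 and 2 UMIs in 36 cells of each library. At 5 dpw, with 91 and 66 UMIs, the levels were 38.3 and 27.5 CPM.

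Hmox1 was highest in macrophage-like cells, at 1417 and 846 CPM at 1 dpw (Angptl4+/+ and Angptl4-/-) and at 1278 and 1267 at 5 dpw. The Angptl4-/- library at 1 dpw was the lowest of the 4. Neutrophil-like cells held 286 and 308 CPM at 1 dpw and 195 and 208 at 5 dpw. Monocyte-like cells held 85.8 to 178 CPM, dendritic cell-like cells 10.8 to 111 and NK cell/T cell-like cells 46.3 to 107. After thinning to 1000 UMIs, 34.5% to 47.5% of macrophage-like cells and 13.3% to 20.7% of neutrophil-like cells had a UMI, against 1.83% to 5.56% of NK cell/T cell-like cells. Median depths were 5806 to 11536 UMIs in macrophage-like cells. Without thinning, the shares were 76.0% to 81.7%, 31.4% to 44.5% and 8.22% to 22.2%. Within the macrophage-like cells the message was uneven: the top 10% of cells held 60.6% to 68.6% of its UMIs.

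Blvrb, which encodes biliverdin reductase B, was likewise highest in macrophage-like cells among the 5 larger named classes. The levels were 114 and 86.5 CPM at 1 dpw and 217 and 193 at 5 dpw in Angptl4+/+ and Angptl4-/- wounds. Both 5 dpw libraries were above both 1 dpw libraries. Monocyte-like cells held 64.8 to 84.1 CPM, a narrow range, and neutrophil-like cells 11.6 to 23.9. B cell-like cells at 5 dpw stood at 173 and 125 CPM, above monocyte-like cells, from 15 and 14 UMIs in 21 and 27 cells.

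Hp was highest in monocyte-like cells at 1 dpw, with 1600 and 1366 CPM in Angptl4+/+ and Angptl4-/- wounds, and stood at 612 and 695 there at 5 dpw. Neutrophil-like cells kept a narrow range, from 982 to 1100 CPM over the 4 libraries. The order of these classes therefore turned between the days in both genotypes. Macrophage-like cells held 220 and 224 CPM at 1 dpw and 132 and 112 at 5 dpw. Over the same comparison their summed neutrophil markers (14 of 14 seen) stood at 23954 and 20940 CPM at 1 dpw and at 4450 and 5822 at 5 dpw. The part of those markers in the Hp values was not tested. NK cell/T cell-like cells, in which Hp has no known role, held 219 and 170 CPM at 1 dpw. The intervals were 168 to 282 and 126 to 224. Single cells held 26 of the 61 UMIs (Angptl4+/+) and 33 of the 49 (Angptl4-/-), so no background level is read from these values.

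Macrophage-like and neutrophil-like cells were next compared within each library. A gene was called when its CPM differed at least 2-fold (a log2 ratio of 1 or more in size) with at least 100 UMIs over both arms. Hmox1 and Blvrb were called higher in macrophage-like cells, and Slc40a1 and Hp lower, in all 4 libraries. These 4 of the 8 genes stand beside 46.5% of all genes tested in all 4 libraries (38.7% higher and 7.84% lower), so a share of this size was not particular to the 8. The median gene was itself 0.87 to 1.44 higher on the log2 scale in macrophage-like cells. Values relative to that median are therefore given as well. In macrophage-like cells 14 neutrophil markers took a small part of the UMIs that they took in neutrophil-like cells (143270 to 256580 CPM). Their part in the shift of the median was not tested.

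Blvrb was higher in macrophage-like cells by 3.29 and 2.86 on the log2 scale at 1 dpw (Angptl4+/+ and Angptl4-/-) and by 3.18 and 3.40 at 5 dpw. Relative to the median gene it stood 1.42 to 2.53 higher. Hmox1 was higher by 2.31 and 1.46 at 1 dpw and by 2.71 and 2.61 at 5 dpw. Relative to the median it stood 0.88, 1.77 and 1.74 higher in 3 libraries and 0.02 higher in Angptl4-/- wounds at 1 dpw. Under TMM, a scaling that centres the bulk of genes, Hmox1 was not called at 1 dpw, where it stood at 0.70 in Angptl4+/+ and turned to −0.26 in Angptl4-/- wounds.

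Slc40a1 was lower in macrophage-like cells, with log2 ratios of −3.74 and −3.76 at 1 dpw and −3.34 and −3.60 at 5 dpw, and lower still relative to the median. A sub-cluster of 550 macrophage-like or monocyte-like cells was led by neutrophil genes (Retnlg, S100a8, S100a9) and held 34 of the Slc40a1 UMIs. Without these cells the log2 ratios were −4.97 and −4.38 at 1 dpw and −3.36 and −3.63 at 5 dpw. Hp stood at −2.23 and −2.13 at 1 dpw and at −3.06 and −3.18 at 5 dpw.

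The remaining 4 genes differed less in CPM. By library, 69.1% and 69.5% of all genes were called at 1 dpw and 61% and 61.3% at 5 dpw. Fth1 was lower in macrophage-like cells, at −0.45 and −0.79 at 1 dpw, and was called at 5 dpw, at −1.05 and −1.15. The first of these calls was lost under a stricter cell filter (−0.89), after thinning (−0.96) and with a mean over cells (−0.95), and the other with a mean over cells (−0.997). Ftl1 was higher by 0.81 and 0.55 at 1 dpw and by 0.35 and 0.49 at 5 dpw, but stood below the median gene in all 4 libraries, and its direction turned under TMM in all 4 (−0.79, −1.17, −0.57 and −0.55). Slc11a1 stood between −0.94 and −0.37 and was not called. Under TMM it was past 2-fold lower in all 4, at −2.55 and −2.56 at 1 dpw and −1.29 and −1.88 at 5 dpw. Tfrc was called lower only in Angptl4+/+ wounds at 5 dpw, at −1.42, with −0.89, −0.08 and −0.97 in the other libraries. Fth1, Slc11a1 and Tfrc stood below the median gene in all 4 libraries, and under TMM Fth1 and Tfrc were also past 2-fold lower in all 4.

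**Figure D2:**
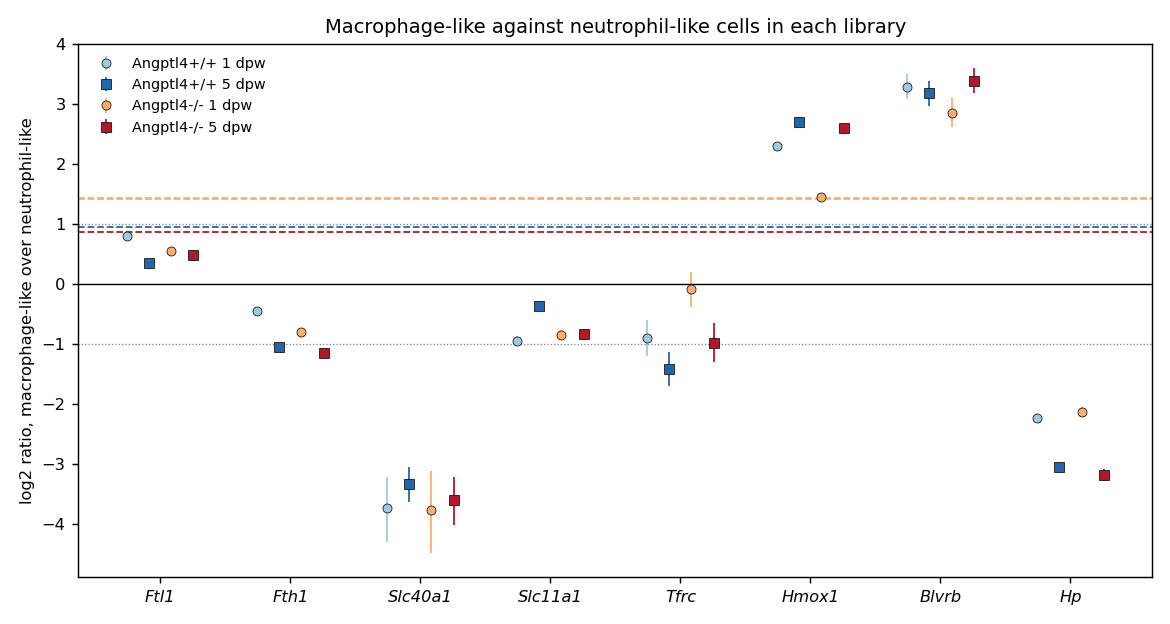
Log2 ratio of CPM, macrophage-like over neutrophil-like cells, for each gene and library, with exact 95% counting intervals. Dashed lines mark each library's median over all genes tested (0.87 to 1.44) and dotted lines the 2-fold limits. Blvrb and Hmox1 lie above 1 and Slc40a1 and Hp below −2 in all 4 libraries.

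Against monocyte-like cells, macrophage-like cells had more Hmox1 in all 4 libraries (log2 ratios of 3.85 and 3.30 at 1 dpw and 3.38 and 2.83 at 5 dpw) and more Fth1 (2.29, 2.28, 1.51 and 1.62). Hp was lower (−2.87, −2.61, −2.21 and −2.64). The median gene lay between −0.08 and 0.09 in these comparisons. Of the 7 or 8 members with enough UMIs, 3 to 5 were called higher and 1 (Hp) lower in a library. Of all genes tested, 14.3% and 15.6% were called higher at 1 dpw (Angptl4+/+ and Angptl4-/-) and 13.1% and 12% at 5 dpw, and 12.2%, 11.1%, 5.36% and 5.61% lower.

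The heme genes Hmox1 and Blvrb and the ferritin genes were also uneven inside the macrophage-like and monocyte-like cells, which were split together into 9 sub-clusters. Hmox1 was highest in the sub-cluster led by Mt2, Mmp12 and Ptges in Angptl4+/+ wounds at 5 dpw (3622 CPM). In the 3 other libraries it was highest in the sub-cluster led by Gpnmb, Il7r and Fabp5 (1734 to 2191 CPM), with the Mt2 sub-cluster next (1293 to 2170 CPM). It was lowest in every library, at 118 CPM over the 4, in the sub-cluster led by Ace and Prtn3, which was 97.2% monocyte-like cells. In every library Fth1 was highest in the Mt2 sub-cluster (35639 CPM over the 4 libraries) and Ftl1 in the Gpnmb sub-cluster (13287 CPM). Mt2 encodes metallothionein, which binds zinc and copper, and Gpnmb marks lipid-laden and lysosome-rich macrophages.

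Blvrb was highest at 5 dpw in the Mt2 sub-cluster (435 and 342 CPM in Angptl4+/+ and Angptl4-/- wounds). At 1 dpw it was highest in the sub-cluster led by Ccl8, Cbr2, Gas6 and C1qa (178 and 158.5 CPM), a pattern of genes known from resident macrophages. In the latter Tfrc stood at 41.3 (Angptl4+/+) and 65.5 CPM (Angptl4-/-) at 1 dpw, with 18.0 and 20.1 at 5 dpw, and a different sub-cluster held the most Tfrc in each library. In this sub-cluster the 1 dpw libraries were above the 5 dpw libraries for Tfrc. For Slc40a1 the order was opposite, with 1.88 and 1.31 CPM at 1 dpw and 26.0 and 16.6 at 5 dpw, over 102 UMIs in all. These levels rest on few UMIs and cells. All macrophage-like cells together held 31 and 20 Slc40a1 UMIs at 1 dpw, and at 5 dpw single cells held 22 of 112 and 17 of 56.

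The 7 neutrophil-like clusters differed as widely. Fth1, Ftl1 and Hmox1 were highest in the cluster led by Nceh1, F10 and Fnip2, at 61005, 12578 and 618 CPM over the 4 libraries. The cluster led by Anxa1, Ngp and Mmp8, the last 2 of them genes of neutrophil granules, held the least Fth1 and Tfrc, at 13961 and 2.86 CPM, and the most Hp, at 2391 CPM. Hp was lowest, at 418 CPM, in the Nceh1 cluster, and Slc11a1 was highest, at 454 CPM, in the cluster led by Csf3 and Serpinb2. Each of these orders held in all 4 libraries. The Anxa1 cluster also held the least Hmox1 (60.4 CPM) and the most Slc40a1 (156 CPM) over the 4 libraries, and in 3 of them singly. In Angptl4-/- wounds at 1 dpw the most Slc40a1 was in another cluster (124 against 90.8 CPM). Slc40a1 was lowest in the Csf3 cluster in 3 of 4 libraries. Tfrc was highest in the Csf3 cluster at 1 dpw (47.3 and 54.1 CPM) and in the Nceh1 cluster at 5 dpw (51.1 and 43.5 CPM).

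**Figure D3:**
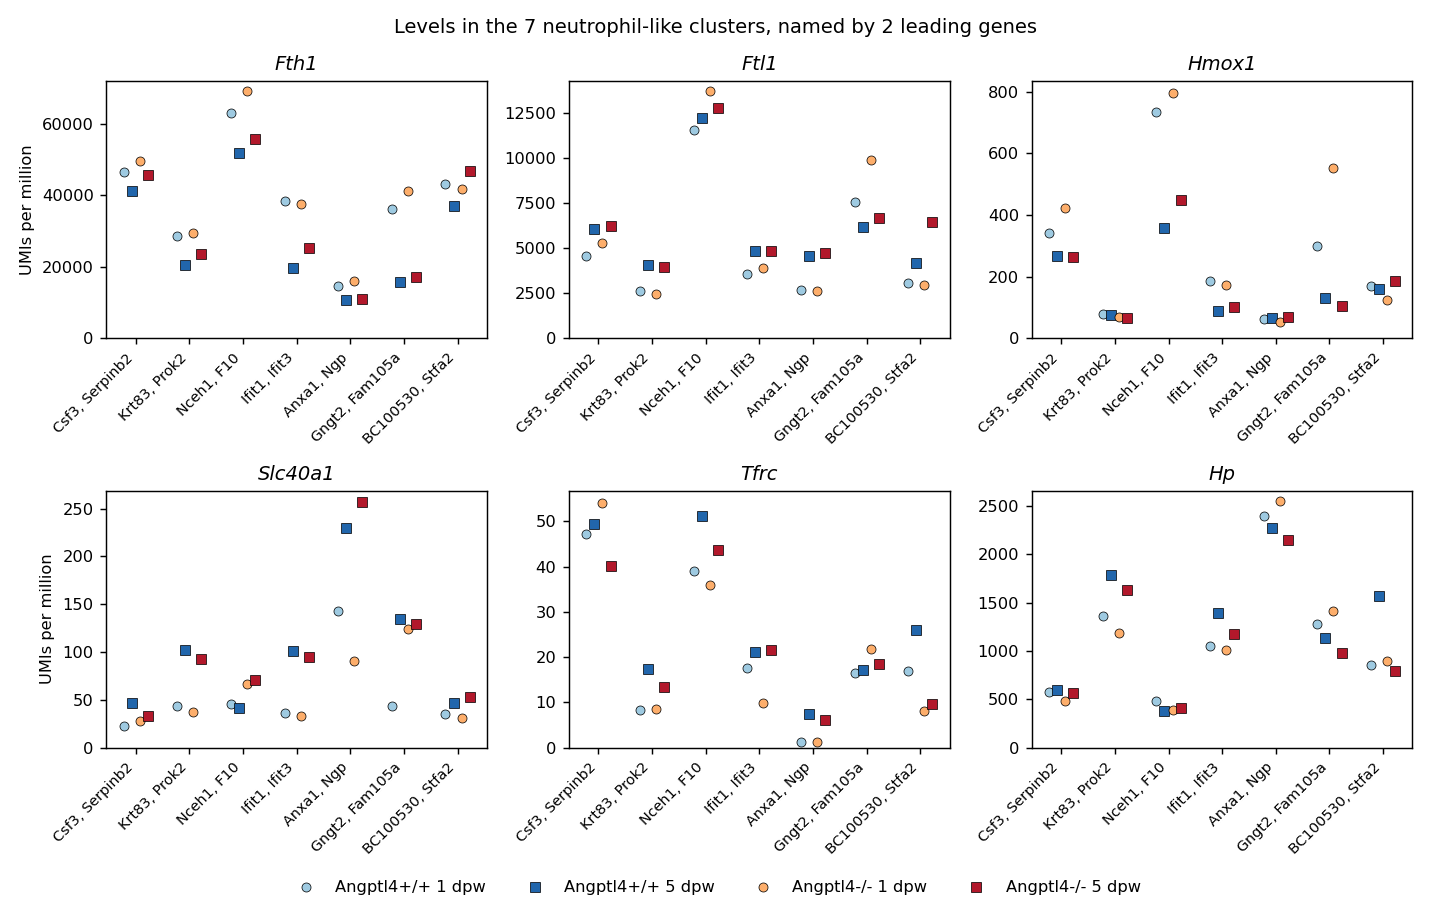
CPM (linear axes from 0) of 6 genes in the 7 neutrophil-like clusters, each named by 2 leading genes, with 1 point for each library. Fth1, Ftl1 and Hmox1 are highest in the Nceh1 cluster and Hp in the Anxa1 cluster (2149 to 2552) in each of the 4 libraries.

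Time was compared next, 5 dpw against 1 dpw within each genotype. In neutrophil-like cells 1 of the 8 genes was called in Angptl4+/+ (Blvrb, higher) and 0 in Angptl4-/- wounds, beside 32.3% and 34.6% of all genes tested. The median gene was itself 0.65 and 0.68 higher at 5 dpw on the log2 scale. The 14 neutrophil markers took 241590 and 256580 CPM at 1 dpw and 143270 and 146500 at 5 dpw. Their part in the shift of the median was not tested. Blvrb was higher by 1.04 (0.98 without the 1 cell that held most of its UMIs) and 0.62, and Slc40a1 by 0.91 and 0.93 (intervals 0.77 to 1.05 and 0.80 to 1.06). Fth1 was lower (−0.34 and −0.25), as were Hmox1 (−0.55 and −0.57) and Slc11a1 (−0.73 and −0.28), each opposite to the median gene. Ftl1 stood at 0.43 and 0.33, Tfrc at 0.42 and 0.21 and Hp at 0.09 and 0.05. Under TMM these last 3 turned negative in both genotypes, Slc40a1 stood at 0.06 and 0.12, Blvrb stood at 0.19 and −0.18, and Fth1, Hmox1 and Slc11a1 were past 2-fold lower.

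Within the neutrophil-like clusters Fth1 was lower at 5 dpw in 7 of 7 in Angptl4+/+ and in 6 of 7 in Angptl4-/- wounds. Slc40a1 was higher in 5 of the 6 with enough UMIs in Angptl4+/+ and in 6 of 6 in Angptl4-/- wounds. Its median over these clusters was 1.14 and 0.79, beside a median gene of the whole class at 0.65 and 0.68. The share of all genes higher in as many clusters was not counted. Clusters of a library share its cells' handling, so these counts are no replicates.

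In macrophage-like cells 1 of 8 members was called in Angptl4+/+ wounds (Slc40a1, higher, 1.31) and 2 of 7 in Angptl4-/- wounds (Blvrb, higher, 1.16, and Hp, lower, with 112 against 224 CPM), beside 10.7% and 8% of all genes tested. The Slc40a1 value was 0.995 without 1 cell that held 22 of the 112 UMIs, just under the limit. The Hp value was −1.003, close to the limit. It was −0.85 under a stricter cell filter, −0.67 with finer clusters, −0.27 after thinning and −0.20 with a mean over cells. Blvrb stood at 0.92 in Angptl4+/+ wounds, with an interval of 0.82 to 1.03, and at 1.08 under the stricter filter. Its call in Angptl4-/- wounds was lost after thinning (0.76). Median depths there were 5806 UMIs at 1 dpw and 11536 at 5 dpw. Fth1 was lower (−0.94 and −0.60), Hp stood at −0.73 in Angptl4+/+ wounds, and Slc11a1 at −0.15 and −0.27. Hp stood at −0.68 (Angptl4+/+) and −1.02 (Angptl4-/-) without the sub-cluster led by neutrophil genes. The part of the neutrophil markers in the Fth1 and Hp values was not tested further. Hmox1 stood at −0.15 (−0.18 to −0.12) in Angptl4+/+ and at 0.58 (0.53 to 0.63) in Angptl4-/- wounds, so the 2 genotypes lay on opposite sides of 0. Ftl1 stood at −0.02 and 0.27 and Tfrc at −0.10 and −0.68. Without the sub-cluster led by neutrophil genes, an alternative chosen after seeing the data, Slc40a1 stood at 2.51 in Angptl4+/+ wounds. The 1 dpw arm of that value held fewer than the 31 UMIs of all macrophage-like cells. The median gene was at 0.15 and 0.07.

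Over the 9 sub-clusters Fth1 was lower at 5 dpw in 9 of 9 in Angptl4+/+ and in 6 of 9 in Angptl4-/- wounds. Blvrb was higher in 6 of 8 and in 8 of 8. Hmox1 was lower in 6 of 9 in Angptl4+/+ wounds and higher in 7 of 9 in Angptl4-/- wounds, with 4 sub-clusters past 2-fold higher in the latter.

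**Figure D4:**
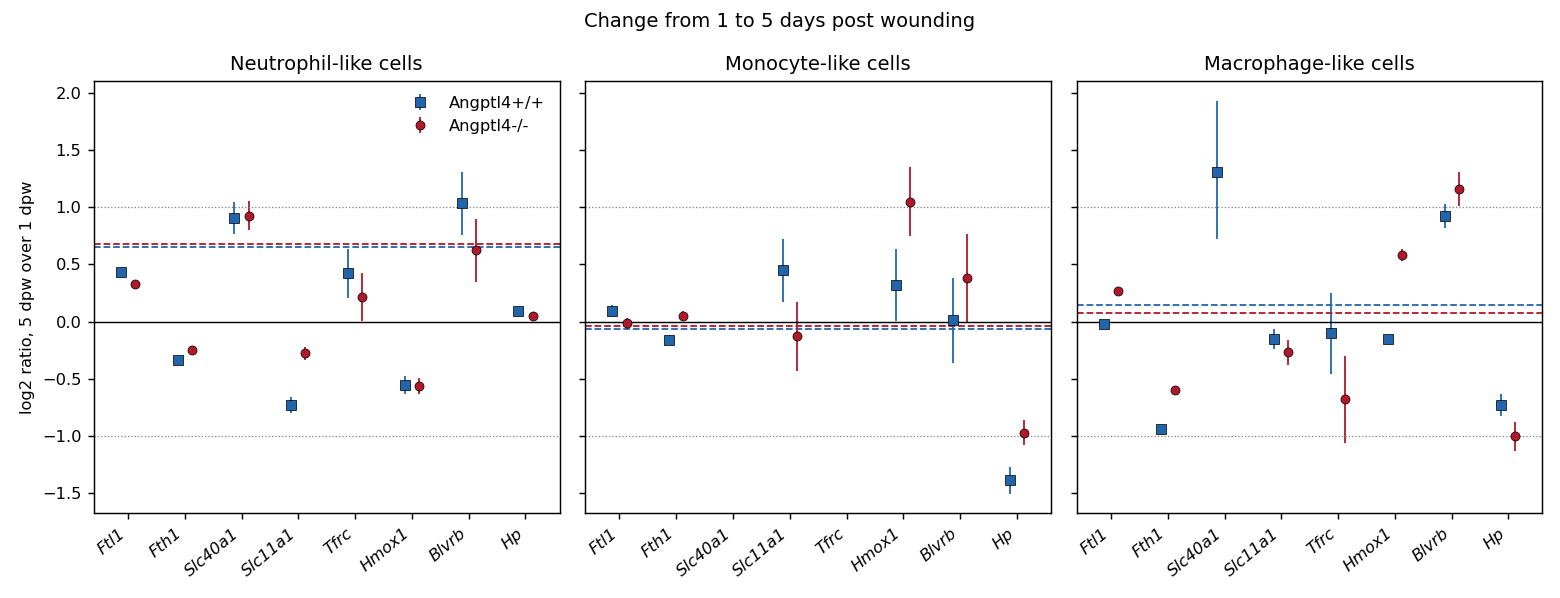
Log2 ratio of CPM, 5 dpw over 1 dpw, for each gene with at least 100 UMIs, in 3 cell classes and both genotypes, with exact 95% counting intervals. Dashed lines are the medians over all genes tested and dotted lines the 2-fold limits. In neutrophil-like cells Fth1, Slc11a1 and Hmox1 lie below 0 and the median gene near 0.65, and in macrophage-like cells Hmox1 is at −0.15 in Angptl4+/+ and 0.58 in Angptl4-/- wounds.

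In monocyte-like cells Hp was lower at 5 dpw, at −1.39 in Angptl4+/+ wounds, the only call there, and at −0.97 in Angptl4-/- wounds. Hmox1 was the only call in Angptl4-/- wounds, at 1.05, with 0.32 in Angptl4+/+ wounds. That call rested on 1 cell with 103 of the 245 UMIs at 5 dpw, and the value was 0.28 without it. Summed mast cell or basophil markers in the monocyte-like cells of Angptl4-/- wounds went from 1 UMI (1 of 8 seen) at 1 dpw to 2011 UMIs (8 of 8 seen) at 5 dpw, and their part in the value was not tested. Of all genes tested, 4.22% and 3.21% were called. In dendritic cell-like cells Hmox1 in Angptl4+/+ wounds was lower at 5 dpw than at 1 dpw (−1.89, from 120 against 177 UMIs, and −1.31 without 1 cell that held 60), the only one of 4 members called, beside 6.82% of all genes. In Angptl4-/- wounds it had 40 and 32 UMIs, under the minimum, and 0 of 3 members were called, beside 3.68%. In NK cell/T cell-like cells Fth1 (−1.57), Tfrc (−1.11) and Hp (−2.82) were called lower in Angptl4+/+ wounds, 3 of 5 members tested, beside 17.5% of all genes, and 0 of 3 in Angptl4-/- wounds, beside 12.9%. The 1 dpw values there rest on 36 cells in each genotype. Without the cell that held most UMIs of the gene, Fth1 stood at −1.22, Hp at −2.09 and Tfrc at 0.12, no longer called. Summed neutrophil markers (14 of 14 seen) in these cells stood at 24538 (Angptl4+/+) and 20630 CPM (Angptl4-/-) at 1 dpw, against 3646 and 3459 at 5 dpw. Their part in the Fth1 and Hp values was not tested.

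Genotype was compared last, Angptl4-/- against Angptl4+/+ at the same day. No member was called in neutrophil-like cells at 1 or 5 dpw, beside 0.959% and 1.03% of all genes, and none in macrophage-like cells, beside 0.703% and 1.13%. The farthest from 0 in neutrophil-like cells was Slc11a1 at 5 dpw, at 0.49 (0.42 to 0.57), with 320 against 227 CPM. The other members lay between −0.38 and 0.14 there over both days, and the directions of Hp (−0.07 and −0.12) and, at 1 dpw, of Tfrc (−0.05) turned under TMM.

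In macrophage-like cells at 1 dpw Hmox1 was lower in Angptl4-/- wounds, at −0.74 (−0.79 to −0.70), Blvrb stood at −0.40 and Fth1 at −0.29. Tfrc stood at 0.76 (0.38 to 1.13), from 129 against 118 UMIs. Ftl1, Slc11a1 and Hp lay between −0.12 and 0.14. At 5 dpw Hmox1 stood at −0.01 (−0.05 to 0.02) and the 7 other members between −0.24 and 0.18. The median gene was at 0.02 at 1 dpw and at −0.02 at 5 dpw.

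The Hmox1 difference at 1 dpw was next taken apart by sub-cluster. The log2 ratio of Angptl4-/- to Angptl4+/+ was below 0 in 9 of 9 sub-clusters of macrophage-like and monocyte-like cells. The median was −0.75 and the range −1.42 to −0.24, and in 8 of 9 the interval lay below 0. Of the 9, the sub-cluster led by Ace was 97.2% monocyte-like cells, and another was led by neutrophil genes. The share of all genes below 0 in 9 of 9 was not counted. Hmox1 was past 2-fold lower in the sub-clusters led by Retnla and Lyz1 (−1.42, 29 against 34 cells) and by Dmkn and Gpr183 (−1.32, 133 against 143 cells). At 5 dpw the sub-clusters went both ways. The ratio was above 0 in 5 of 9 and below 0 in 4 of 9, with 1.40 in the Retnla sub-cluster and 1.07 in the Ccl8 sub-cluster, −1.57 in the sub-cluster led by neutrophil genes, and −0.99 in both the Mt2 and the Cxcl10 sub-clusters. The near-zero class value at 5 dpw thus held opposite differences. At 5 dpw the Retnla sub-cluster held 58 Angptl4-/- and 111 Angptl4+/+ cells, and the sub-cluster led by neutrophil genes 39 and 147. The weight of single cells in these sub-cluster values was not tested. All sub-clusters of a day share the same pair of libraries.

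**Figure D5:**
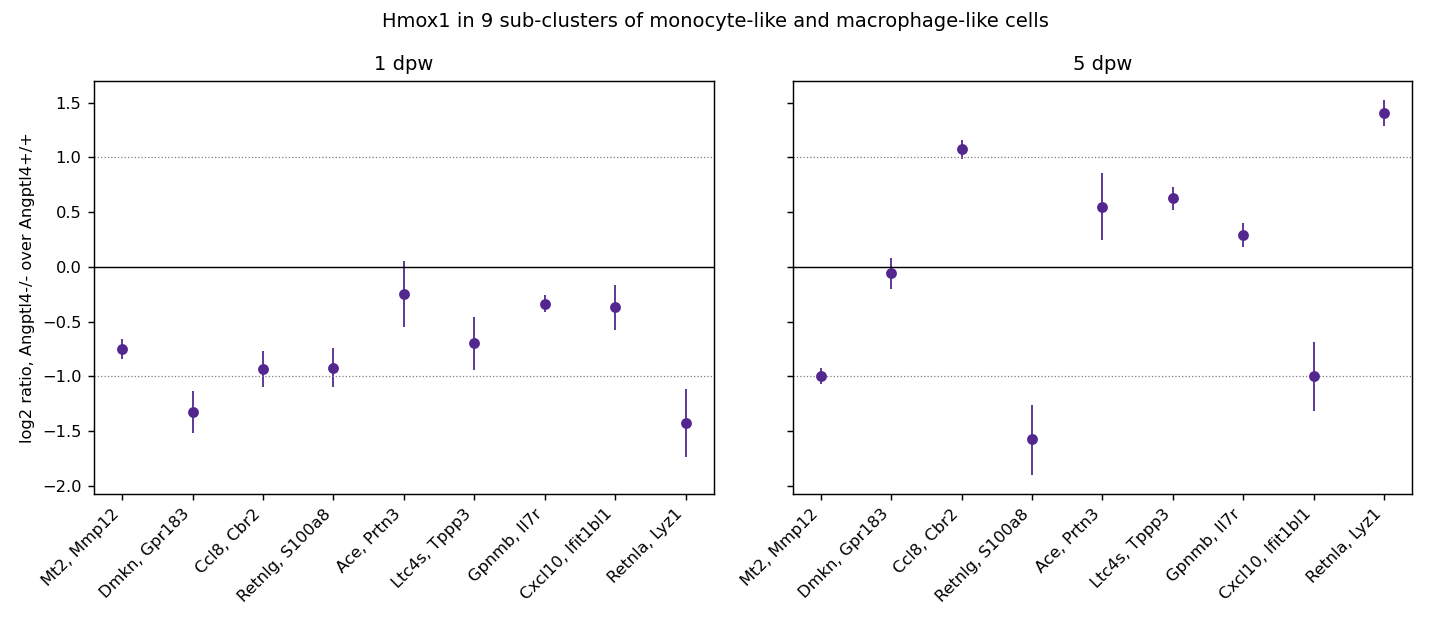
Log2 ratio of Hmox1 CPM, Angptl4-/- over Angptl4+/+, in 9 sub-clusters of monocyte-like and macrophage-like cells named by 2 leading genes, at 1 dpw (left) and 5 dpw (right), with exact 95% counting intervals and dotted 2-fold limits. All 9 points lie below 0 at 1 dpw, and at 5 dpw they run from −1.57 to 1.40.

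In monocyte-like cells no member was called between genotypes, beside 0.652% of all genes at 1 dpw and 1.04% at 5 dpw. Hmox1 stood there at −0.19 and 0.54. At 5 dpw 1 Angptl4-/- cell held 103 of the 245 Hmox1 UMIs, which leaves 142 against 144 in Angptl4+/+ wounds. The direction of the 5 dpw value without that cell was not tested. In dendritic cell-like cells Hmox1 was called lower in Angptl4-/- wounds at 1 dpw (−1.77, from 40 against 177 UMIs) and at 5 dpw (−1.47, from 32 against 120 UMIs), and Blvrb at 1 dpw (−1.03, from 39 against 103 UMIs). These were 2 of 4 members tested at 1 dpw and 1 of 4 at 5 dpw, beside 1.47% and 1.4% of all genes. The counts came from 89 and 108 cells at 1 dpw and from 202 and 303 at 5 dpw. Single Angptl4+/+ cells held 60 of the 177 and 40 of the 120 Hmox1 UMIs and 22 of the 103 Blvrb UMIs. Without that cell Hmox1 stood at −1.19 at 1 dpw, still called, and at −0.89 at 5 dpw, and Blvrb at −0.69, both no longer called.

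Other genes of iron and heme handling were taken from a list of which 72 were in the table. Between macrophage-like and neutrophil-like cells, 19 to 23 were called higher and 6 to 8 lower, of 38 to 46 tested in a library, beside 61% to 69.5% of all genes called in either direction, so the list did not stand out by its share. The log2 ratios below stand beside a median gene at 0.87 to 1.44. Called higher in all 4 libraries were Blvra, the other biliverdin reductase (log2 ratios of 4.33 to 4.96), Slc48a1, which moves heme out of the phagolysosome (3.58 to 4.15), Lrp1, a receptor for heme bound to hemopexin (5.32 to 6.37), and Flvcr1, a heme exporter (1.30 to 1.80). Hfe (6.17 to 8.63), Slc11a2 (5.04 to 7.78), Slc39a14 (2.67 to 5.94), Nr1h3, Keap1, Glrx5, Gclc, Pcbp1, Pcbp2 and Pgrmc1 were also higher in all 4. Slc11a2 and Slc39a14 import iron, and Hfe takes part in sensing it. Lower in all 4 were Lcn2, which encodes the siderophore binder lipocalin 2 (−6.02 to −4.27), Steap4, a metalloreductase (−5.72 to −3.64), Slc7a11, the cystine importer (−3.72 to −2.03), Fbxl5, which targets an iron regulatory protein for breakdown (−2.67 to −1.11), and Alas1, the first enzyme of heme synthesis (−1.43 to −1.04).

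Lcn2, with 167166 UMIs over all passing cells, and Slc7a11, with 162034, were the most counted of the list, followed by Hif1a with 46573 and Fbxl5 with 43746. Lcn2 was lower at 5 dpw in both genotypes in neutrophil-like cells (−2.14 to −1.68), monocyte-like cells (−2.68 to −1.67) and macrophage-like cells (−3.49 to −3.42). Over the same days the summed neutrophil markers stood at 23954 and 20940 CPM, then 4450 and 5822, in macrophage-like cells, and at 17913 and 11113, then 17083 and 10011, in monocyte-like cells. Lcn2 was also a leading gene of the sub-cluster led by neutrophil genes, and the part of these markers in its values was not tested. In neutrophil-like cells it stood at 3608 and 3845 CPM at 1 dpw and 1127 and 872 at 5 dpw. Of the listed genes, 9 and 10 were called higher and 1 lower at 5 dpw in neutrophil-like cells of Angptl4+/+ and Angptl4-/- wounds, of 34 and 33 tested, beside 32.3% and 34.6% of all genes, with Glrx5, which serves iron-sulfur clusters, farthest (2.88 to 2.95). In macrophage-like cells 4 and 2 were higher and 2 and 4 lower, of 46 and 43 tested, beside 10.7% and 8% of all genes, among them Hfe and Gclm (1.04 to 1.06) higher and Slc7a11 lower (−1.85 to −1.22) in both genotypes.

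Between genotypes, Hebp1, which encodes heme-binding protein 1, was the only listed gene called in the same direction at both days in neutrophil-like, monocyte-like and macrophage-like cells. In macrophage-like cells Hebp1 had 167.6 CPM in Angptl4-/- against 5.35 in Angptl4+/+ wounds at 1 dpw and 115 against 17.4 at 5 dpw. In neutrophil-like cells it had 197 against 1 UMIs at 1 dpw and 267 against 1 at 5 dpw, and in monocyte-like cells 457 against 13 and 143 against 0. In these 3 classes 0.652% to 1.13% of all genes tested were called between genotypes at a given day. The share of all genes called in the same direction at both days was not counted. The log2 ratios of Hebp1 were 4.97 and 2.73 in macrophage-like cells and 5.48 in monocyte-like cells at 1 dpw. None is given for the comparisons against 0 or 1 UMIs.

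For each member, the genes with the most similar level over the 22 class and library sums with at least 20 cells were taken by Pearson's r of log2(CPM + 10), among 8715 genes with at least 500 UMIs. The sums share libraries and classes, so r describes them and has no p. For Fth1 these were Slc15a3 (0.97), Slc2a1 (0.97) and Gpr84 (0.96), and for Ftl1 Rbm47 (0.96), Ralb and Gab2 (both 0.94). For Slc40a1 they were Gm17619, Slc32a1 and 4732465J04Rik (0.98, 0.98 and 0.97), and for Slc11a1 Pla2g7 (0.97), Fcgr3 and Cebpb (both 0.96). Hmox1 went with the cathepsin genes Ctsl and Ctsb (both 0.91) and with Tpcn2 (0.90). Blvrb went with B3gnt8 (0.93), Unc93b1 (0.89) and Nfxl1 (0.88). Hp went with Gsr (0.97), Tmem38b (0.95) and Nfe2 (0.94). Tfrc was least closely followed, by Arid3b (0.89), Limk2 and Spin1 (both 0.83).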

How the data were processed

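RNA of live CD45+ wound cells was counted in 4 libraries, grouped by the genotype and day in the labels, with 1 library for each combination. The authors deposited whole-number counts of UMIs per gene and barcode, made from 10x 3′ reads on mm10. The submitters' processing notes name Cell Ranger 3.1.0 and Seurat 3.0. Rows were 31053 genes.

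Barcodes with at least 200 genes and at most 10% mitochondrial UMIs were kept (19827 of 20069). Libraries were joined in Seurat 5.3.0 (R 4.3.3) on 2000 variable genes, with 30 dimensions and clusters at resolution 0.5. Left out of the variable genes were the 8 members, the listed genes and a set of genes that the study names. Among the latter were Cxcr2, Adgre1 and Ccr2, which are also class markers. Clusters were named from marker lists, so names were rebuilt and are not the authors' own. Likely doublets (scrublet in scanpy 1.11.5, top scores at 0.8% per 1000 barcodes) were kept and left out in an alternative. UMIs were summed by class and library and divided by the class total. Intervals are exact at 95% (Poisson for levels, conditional binomial for ratios, scipy 1.17.1 in Python 3.11.15) and cover counting error only. A ratio was called at 2-fold or more with at least 100 UMIs over both arms. TMM factors came from edgeR 4.0.16. Hairpins and gene positions came from GENCODE models on GRCm38.

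The members and lists were chosen with earlier results of these data known. Named genes were the 8 members, the 3 genes most like each, the listed genes called in every library, in both genotypes or at both days, and the 4 listed genes with most UMIs. Leading genes of clusters and other genes that describe them were named after their values were seen. A check of red cell genes is not reported here.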

Additional observations from a re-analysis of the deposited data

Results flagged for a closer look

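In NK cell/T cell-like cells Tfrc, the transferrin receptor gene, differed between 5 and 1 dpw in opposite directions in the 2 genotypes. The Angptl4+/+ log2 ratio was −1.11, from 91 against 23 UMIs. The Angptl4-/- log2 ratio was 1.99, from 66 against 2 UMIs. Both 1 dpw libraries held 36 such cells, and in Angptl4+/+ wounds at 1 dpw 14 of the 23 UMIs sat in 1 cell, without which the log2 ratio was 0.12. The difference between the genotypes was not tested, since each value comes from 1 pair of libraries.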

How the results depend on the processing

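The 4 members past 2-fold between macrophage-like and neutrophil-like cells in all 4 libraries (Hmox1, Blvrb, Slc40a1 and Hp) numbered 6 under TMM, where Hmox1 was lost and Fth1, Slc11a1 and Tfrc were gained. Among members past 2-fold between 5 and 1 dpw, the count in Angptl4+/+ macrophage-like cells (1) was 2 under the stricter cell filter (500 genes, 5% mitochondrial), 2 at resolution 1.0, 2 under TMM and 0 after thinning to 1000 UMIs. In Angptl4-/- macrophage-like cells (2) it was 1 under the stricter filter, 1 at resolution 1.0, 0 after thinning and 3 with at least 10 UMIs. The gene added there was Slc40a1 (1.09, from 56 against 20 UMIs). With a mean over cells the count stayed at 2, but Hp was lost (−0.20) and Tfrc was gained (−1.27). In neutrophil-like cells the count was 3 under TMM in both Angptl4+/+ (1) and Angptl4-/- wounds (0). After thinning it stayed at 1 in Angptl4+/+ wounds, but Blvrb was lost (0.89) and Slc40a1 was gained (1.02). The cause of these changes was not tested. Of the called log2 ratios, over the settings just named, Hmox1 between macrophage-like and neutrophil-like cells in Angptl4-/- wounds at 1 dpw was the 1 that reversed, from 1.46 to −0.26 under TMM. Of 94 member ratios the sign changed in 15 under TMM, in 7 of 88 after thinning, in 6 with a mean over cells, in 2 at resolution 1.0, in 1 each under the stricter filter, without integration and without doublets, and in 0 without the 8 genes in the total or with at least 10 UMIs. An alternative chosen after seeing the data, without the sub-cluster led by neutrophil genes, changed 1 sign. Of 13 calls between days or genotypes, 7 were lost without the 1 cell that held most UMIs of the gene in the higher arm, also chosen after seeing the data, and Tfrc in NK cell/T cell-like cells of Angptl4+/+ wounds reversed, from −1.11 to 0.12. No paired analysis was possible because each condition had 1 library. For the same reason no library could be left out. Low UMI counts of the gene limited Slc40a1 outside neutrophil-like cells, and Tfrc in small classes.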
